A study of Mus musculus with 36 samples.

Results

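Genes of glucose uptake, glycolysis, lactate handling and glycogen metabolism were followed in mouse C2C12 myotubes, the multinucleate cells that form when this muscle precursor line is moved to low serum. The set was a list of 47 gene names, and a member was analysed where its row in the matrix held 1 RPM or more (reads per 1000000 counted) for 12 or more of all 36 libraries. This held for 44 names among the 13995 genes that passed the same filter, and the 3 others (*Pfkfb1*, *Fbp2* and *Ppp1r3d*) are described by their values only. All cultures received an antisense locked nucleic acid (LNA) on day 3 of differentiation, either a negative control (control) or one against the long noncoding RNA *Tug1* (*Tug1* KD), and were studied 24 h later on day 4. Rest wells held the electrodes without current. EPS wells underwent electrical pulse stimulation for 3 h (13 V and 66 Hz in pulses of 2 ms, with 5 s of pulses alternating with 5 s of pause), a contraction model in culture. They were harvested either at once, called EPS 0h, or following another 3 h without current, called EPS 3h. Each of the 6 groups had 6 libraries, each from 1 well, from 2 independent experiments of 3 wells. The wells come from a single cell line, so the spread between libraries is that between wells and between experiments.

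Glucose enters muscle cells through facilitative transporters of the GLUT family, is trapped by hexokinase, and is either burned through glycolysis to pyruvate or stored as glycogen. Pyruvate then leaves as lactate through monocarboxylate transporters or enters mitochondria through pyruvate dehydrogenase, which its kinases switch off. Contraction is known to raise glucose uptake and glycogen breakdown in muscle, largely through enzyme activity and transporter movement rather than through transcription. Glycogen is made by synthase from a glycogenin primer, broken down by phosphorylase, and regulated by phosphorylase kinase and by targeting subunits that bring protein phosphatase 1 to the particle.

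The promoter windows of 3 members are shown because *Ppp1r3c* had the largest response to EPS in the set, and *Txnip* and *Arrdc4*, related genes whose log2FC had the same sign in all 8 comparisons of 2 groups, are known targets of glucose-sensing factors that bind E-boxes. Each window holds the 250 bases before the start of the canonical transcript in GRCm39, written 5′ to 3′ on the strand of the gene. In the *Txnip* window (chr3:96465017-96465266, plus strand) capitals mark a tandem E-box (a pair of CACGNG cores 5 bases apart), in the *Arrdc4* window (chr7:68399000-68399249, minus strand) the E-box CACGTG, and in the *Ppp1r3c* window (chr19:36714071-36714320, minus strand) the hypoxia response core ACGTG on either strand, which lies inside every CACGTG.
Txnip: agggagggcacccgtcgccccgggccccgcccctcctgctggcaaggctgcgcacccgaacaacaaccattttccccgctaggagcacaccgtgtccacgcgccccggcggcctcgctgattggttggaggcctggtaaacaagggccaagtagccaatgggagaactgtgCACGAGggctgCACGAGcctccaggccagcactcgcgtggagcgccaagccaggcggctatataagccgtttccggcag
Arrdc4: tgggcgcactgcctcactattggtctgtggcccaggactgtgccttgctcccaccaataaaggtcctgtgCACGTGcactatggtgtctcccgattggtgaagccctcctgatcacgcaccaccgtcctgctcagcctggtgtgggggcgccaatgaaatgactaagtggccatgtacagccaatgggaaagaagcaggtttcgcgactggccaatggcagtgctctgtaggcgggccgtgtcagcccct
Ppp1r3c: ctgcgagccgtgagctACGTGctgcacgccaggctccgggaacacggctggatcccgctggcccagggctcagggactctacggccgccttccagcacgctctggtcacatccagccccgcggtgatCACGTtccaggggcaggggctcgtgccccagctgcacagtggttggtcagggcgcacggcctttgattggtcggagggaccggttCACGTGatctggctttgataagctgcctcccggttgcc
Searched on both strands, the tandem E-box was in 8 of 13946 windows of the genes tested (0.0574%), of which the *Txnip* window was the single one among the 44 members. CACGTG was in 8 member windows (18.2%) and in 7.5% of all windows. ACGTG was in 16 member windows (36.4%) and in 20.6% of all windows. The *Ppp1r3c* window held 4 matches to ACGTG, of which 2 share a CACGTG that begins 38 bases before the start. These motifs were chosen after the values of the genes were seen, and a match describes letters, not a bound site.

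The libraries held 17005079 to 24181167 counts on genes. *Tug1* itself was at 38.5 to 58.2 RPM (median 47.7) in Rest control libraries and 23.9 to 33.2 RPM (median 25.4) in Rest *Tug1* KD libraries (log2FC -0.83, SE 0.171, FDR = 0.000915, sets -0.94 and -0.71), with no overlap. It was also lower at EPS 0h (log2FC -0.57, SE 0.169, FDR = 0.0178, sets -0.49 and -0.66) and EPS 3h (log2FC -0.51, SE 0.168, FDR = 0.0414, sets -0.50 and -0.53), where the groups overlapped, and *Tug1* rose with EPS in control myotubes by 0.48 and 0.75 on the log2 scale. The summed level of 18 myotube markers ranged from 19642 to 27939 RPM over all libraries, with *Tnnc2* alone under 1 RPM. The 7 markers of proliferating myoblasts summed to 151 to 188 RPM in Rest control, 185 to 221 RPM at EPS 0h and 131 to 189 RPM at EPS 3h. The summed level of 5 fibroblast or adipocyte markers was 17.5 to 24.3 RPM in Rest control, 11.7 to 13.4 RPM at EPS 0h, 11.1 to 14.0 RPM at EPS 3h and 11.5 to 16.8 RPM in Rest *Tug1* KD libraries. *Pdgfra* gave the largest part of this sum, and *Dpt*, *Lum*, *Adipoq* and *Plin1* had group means between 0 and 1.26 RPM. That of *Adipoq* was higher after EPS, 0.0946 RPM in Rest control and 1.13 RPM at EPS 3h. In EPS 3h *Tug1* KD libraries the sum was 6.68 to 11.8 RPM, and 2 of the 5 markers had means under 1 RPM. The 4 endothelial or blood markers summed to between 0.422 and 22.2 RPM per library, and *Pecam1* had a mean of 0.374 RPM in Rest control and 1.86 RPM at EPS 3h. The part that any of these markers' cells took in the results was not tested, and in bulk RNA fewer cells of a type and less RNA per cell cannot be told apart. Replicates 1 to 3 (set 1) and 4 to 6 (set 2) were read as the 2 experiments, although no label names them. After each group was centred, the correlation of 2 of its libraries was as low as -0.382 within a set and as high as 0.208 between sets. In EPS 3h control, *Hk1* was at 147 RPM in replicate 3, near the 140 to 147 RPM of replicates 4 to 6. Replicates 1 and 2 were at 95.1 and 83.0 RPM. *Pfkp* was at 148 RPM in replicate 3, near the 146 and 137 RPM of replicates 1 and 2. The sets may thus not be the 2 experiments. The log2FC within set 1 and set 2 follows each pooled value in that order. Every member called in a comparison of 2 groups had a log2FC of the same sign in both sets. The calls came from a fit that pooled both sets, so members of opposite sign were unlikely to be called. The agreement in sign is thus no separate support. A range in parentheses after a log2FC is its 95% interval.

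At Rest, the levels per transcript length showed which isoform of the set led each step in control myotubes. Each share is of the summed level of the isoforms of that step in the set. Family members outside the set, such as *Slc2a10* and *Pdk4*, are not part of these shares. Per kb of the canonical transcript, *Pfkm*, the muscle phosphofructokinase, made up 75.1% ± 0.961 of the 3 phosphofructokinase isoforms, *Pfkp* 17.4% ± 1.72 and *Pfkl*, the liver form, 7.49% ± 1.66 (mean ± SD, n = 6). *Aldoa* held 99.9% ± 0.0212 of aldolase and *Ldha* 97.0% ± 0.830 of lactate dehydrogenase. The muscle forms *Eno3* and *Pgam2* held 66.4% ± 3.80 of enolase and 72.5% ± 5.06 of phosphoglycerate mutase. *Pygm*, muscle phosphorylase, held 86.4% ± 3.79 of glycogen phosphorylase beside the brain form *Pygb*. Among the glucose transporters of the set the basal form *Slc2a1* (GLUT1) held 96.0% ± 2.05. *Slc2a4* (GLUT4), the insulin-responsive transporter that defines mature muscle, was low at 1.27 to 4.01 RPM (median 2.14). *Hk1* held 68.9% ± 2.84 of hexokinase, with *Hk2*, the form known to dominate in adult muscle, at 31.1% ± 2.84. Among the lactate carriers of the set the ubiquitous *Slc16a1* (MCT1) held 83.7% ± 2.97 and the exporter *Slc16a3* (MCT4) 16.3% ± 2.97. *Pdk2* was the highest of the 3 pyruvate dehydrogenase kinases in the set at 57.7% ± 2.45. Within each of these steps the ranges of shares of the leading isoform and of the next did not overlap over the 6 libraries.

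**Figure D1:**
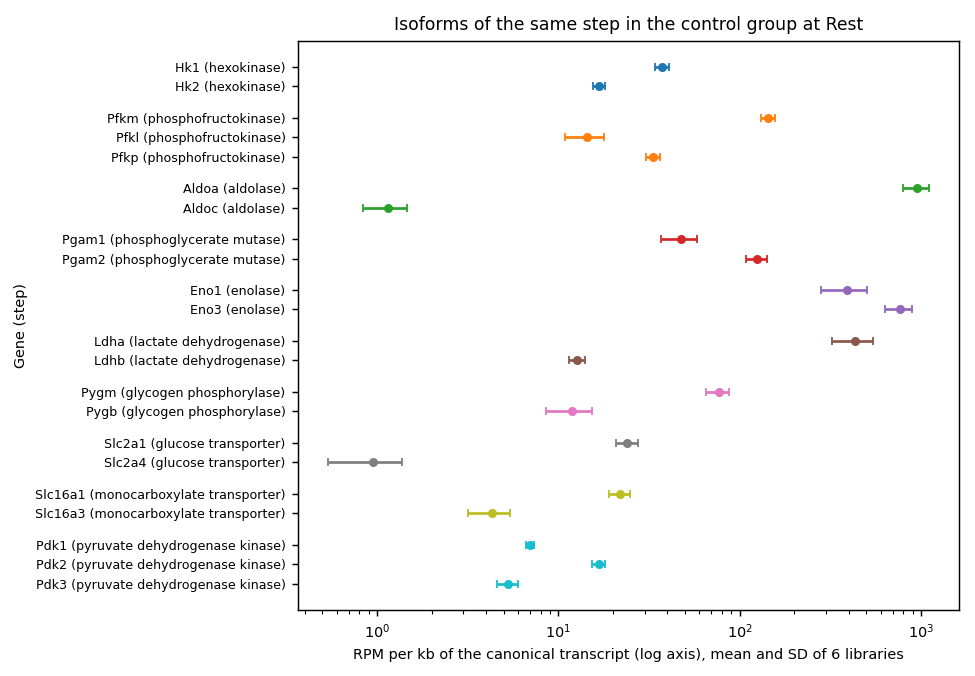
Level of each isoform in the 6 Rest control libraries, in RPM per kb of the canonical transcript on a log axis, grouped by step. Points are means and bars are SD, and *Aldoa* and *Aldoc* stand farthest apart among the pairs, with 99.9% and 0.119% of their summed level.

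EPS changed part of the set in control myotubes. At EPS 0h, 6 of 44 members were higher (13.6%, against 20.5% of all genes tested) and 8 were lower (18.2%, against 18.4%) at an FDR under 0.05. At EPS 3h, 4 were higher (9.09%, against 26.1%) and 7 were lower (15.9%, against 25.9%). The share of lower members was near the background at EPS 0h, and the other 3 shares were under it. The median log2FC of the members was -0.10 at EPS 0h and -0.03 at EPS 3h, where that of all genes was -0.03 and -0.02. At EPS 0h it was -0.08 within set 1 and -0.12 within set 2, and at EPS 3h 0.10 and -0.16. The 2 time points share the Rest libraries, and 2 members were called higher and 6 lower in both. The share of all genes called at both times is not given here, so these 2 counts have no background. With the replicate number as a block, 7 members were higher and 13 lower at EPS 0h, and 7 higher and 13 lower at EPS 3h. Same-numbered libraries deviated together here, but pairing by number and an effect shared by a whole experiment cannot be told apart. Scaling by library size alone lowered the median log2FC of all genes by a further 0.08 and 0.17, and the calls became 4 higher and 12 lower at EPS 0h and 3 higher and 17 lower at EPS 3h. The shares of all genes above belong to the main fit. Those under the block or this scaling are not given here, so these counts have no background beside them. Without the filter on low counts, *Pfkm*, *Gyg*, *Gbe1*, *Ppp1r3b* and *Pdk3* lost their call at EPS 0h and *Gyg* at EPS 3h. No Rest group was kept for the recovery time, so recovery and later time in culture cannot be told apart at EPS 3h.

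**Figure D2:**
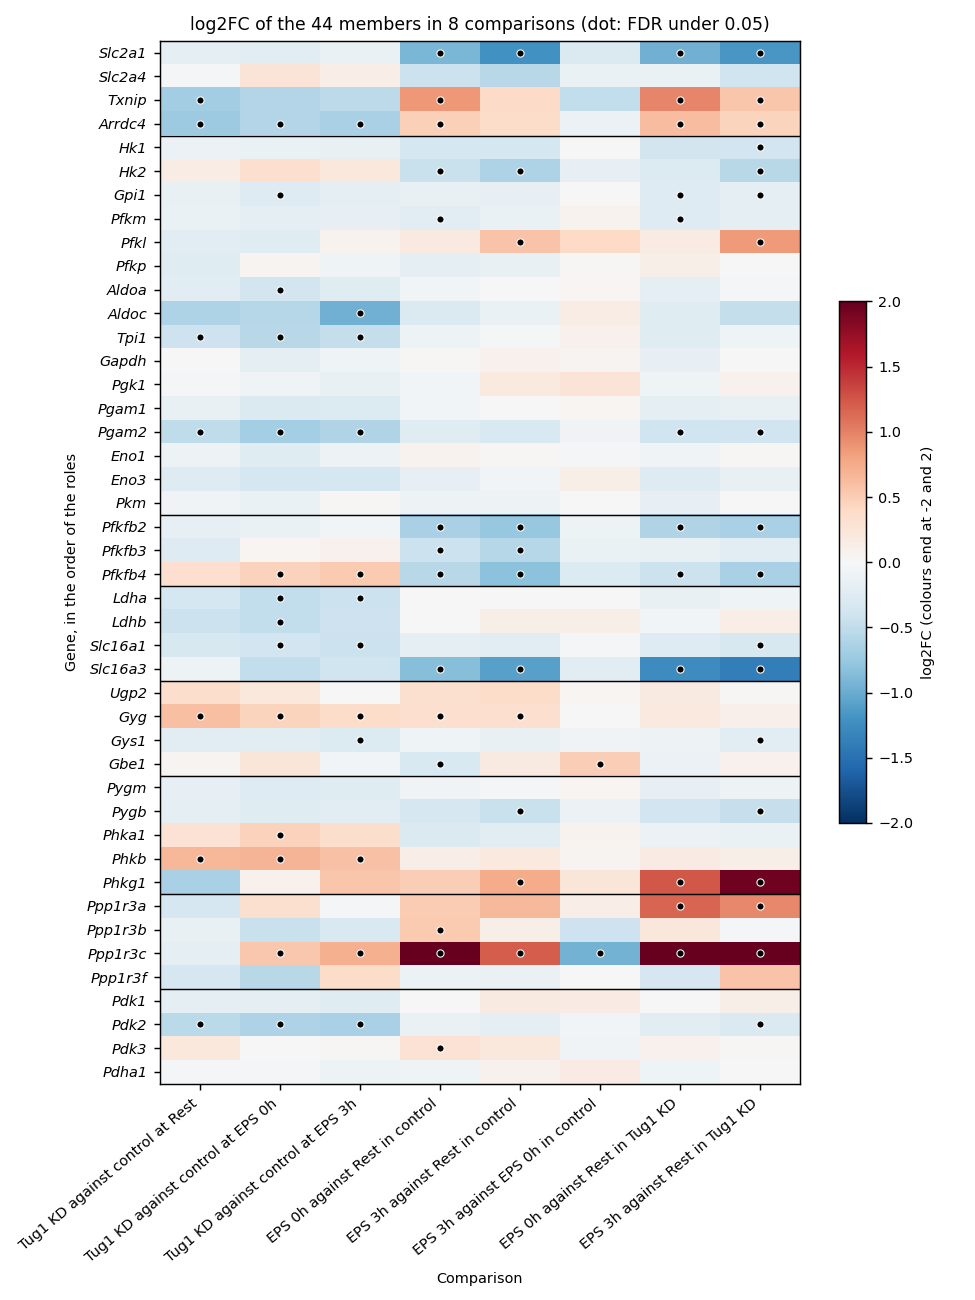
The log2FC of the 44 members (vertical axis, in the order of their roles, with lines between roles) in 8 comparisons (horizontal axis), red for higher and blue for lower, with colours ending at -2 and 2. Dots mark an FDR under 0.05, and *Slc2a1*, *Slc16a3* and *Ppp1r3c* carry a dot in all 4 comparisons of EPS with Rest, while *Gapdh*, *Pkm* and *Eno1* carry none.

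*Slc2a1* (ENSMUSG00000028645, chr4:118965908-118996365, plus strand, GRCm39), the basal glucose transporter, fell at both times. It was at 94.1 to 130.1 RPM (median 105) in Rest control libraries, 46.3 to 68.8 RPM (median 57.0) at EPS 0h and 34.7 to 54.6 RPM (median 47.9) at EPS 3h. It was thus 1.89-fold lower at EPS 0h (log2FC -0.91, SE 0.124, FDR = 3.6e-07, sets -0.85 and -0.97) and 2.31-fold lower at EPS 3h (log2FC -1.21, SE 0.125, FDR = 4.63e-10, sets -1.24 and -1.17), with every EPS library under every Rest library. *Slc2a4* was at 1.12 to 2.29 RPM (median 1.79) at EPS 0h and 0.634 to 2.61 RPM (median 1.65) at EPS 3h, and its log2FC of -0.43 (95% interval -1.0 to 0.14) and -0.56 (95% interval -1.14 to 0.01) did not pass the test, although the later value did with the replicate block (FDR = 0.0295).

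The arrestin-domain genes, whose proteins withdraw glucose transporters from the cell surface, moved the other way at EPS 0h. *Txnip* was at 147 to 196 RPM (median 167) at Rest and 207 to 427 RPM (median 289) at EPS 0h, with no overlap, a 1.83-fold rise (log2FC 0.87, SE 0.226, FDR = 0.00230, sets 0.95 and 0.76). *Arrdc4* was at 4.02 to 6.86 RPM (median 5.24) at Rest and 5.84 to 9.47 RPM (median 7.16) at EPS 0h, with overlapping ranges and all 6 EPS libraries above the Rest mean (log2FC 0.48, SE 0.158, FDR = 0.0144, sets 0.47 and 0.49). At EPS 3h *Txnip* ranged widely, 127 to 349 RPM (median 234), and neither gene passed the test, with log2FC 0.38 (FDR = 0.157) for *Txnip* and 0.37 (FDR = 0.0503) for *Arrdc4*. *Arrdc4* passed with the replicate block (FDR = 0.0116). An antisense RNA over *Txnip*, *Gm15441*, had between 3 and 24 counts per library and did not pass the filter.

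Among the 16 glycolytic enzymes from hexokinase to pyruvate kinase, 2 were lower at EPS 0h (12.5%, against 18.4% of all genes). At EPS 3h 1 was higher (6.25%, against 26.1%) and 1 lower (6.25%, against 25.9%). *Hk1* and *Pfkp* were also lower at both times with the replicate block, *Hk1* with log2FC -0.36 (FDR = 0.00432) and -0.35 (FDR = 0.00273) and *Pfkp* with -0.17 (FDR = 0.0112) and -0.15 (FDR = 0.0173), and *Pgam2* at EPS 3h (FDR = 0.0192). *Hk2*, which commits glucose to the cell, was at 118 to 144 RPM (median 132) at Rest, 85.9 to 109.8 RPM (median 94.6) at EPS 0h and 57.5 to 112 RPM (median 85.0) at EPS 3h. No library reached the Rest range at EPS 0h (log2FC -0.45, SE 0.134, FDR = 0.00776, sets -0.55 and -0.35) or at EPS 3h (log2FC -0.61, SE 0.135, FDR = 0.000258, sets -0.76 and -0.45). *Pfkm* fell slightly at EPS 0h, from 501 to 641 RPM (median 586) to 452 to 526 RPM (median 509), with overlapping ranges (log2FC -0.21, SE 0.0828, FDR = 0.0452, sets -0.20 and -0.22). *Senp1*, which shares 391 exonic bases with it on the other strand, rose (log2FC 0.64, SE 0.131, FDR = 0.000180, sets 0.85 and 0.40). *Pfkl* rose at EPS 3h, from 45.5 to 82.2 RPM (median 53.0) to 72.1 to 97.9 RPM (median 87.8), also with overlap (log2FC 0.57, SE 0.150, FDR = 0.00169, sets 0.89 and 0.31). Exons of *Cfap410* overlap those of *Pfkl* on the other strand, and *Cfap410* rose as well at EPS 3h (log2FC 0.50, SE 0.122, FDR = 0.000767, sets 0.59 and 0.44). The authors prepared stranded libraries, but the strand setting of the counting is not stated. Whether reads of the 2 genes were kept apart where they overlap is thus not known.

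Several abundant enzymes did not pass the test after EPS in control myotubes. *Gapdh* was at 1719 to 2599 RPM (median 1917) at Rest, 1864 to 2399.6 RPM (median 2090.0) at EPS 0h and 1895 to 2648 RPM (median 2154) at EPS 3h. Its log2FC was 0.03 (95% interval -0.21 to 0.26) and 0.08 (-0.15 to 0.31). The interval at EPS 3h was -0.24 to 0.23 for *Aldoa*, -0.21 to 0.27 for *Eno1*, -0.02 to 0.40 for *Pgk1* and -0.42 to 0.20 for *Pkm*. Together the 16 enzymes summed to between 9024 and 13326 RPM at Rest, between 8926 and 11529 RPM directly after EPS and between 8818 and 12391 RPM later. These ranges overlapped. Several of these enzymes have processed copies in the genome, and how the counting shared reads among copies is not stated. *Gm49759* shares 3157 of the 13417 exonic bases of *Pkm* on the same strand. On the other strand *Iffo1* shares 2982 of the 7160 of *Gapdh*, and *Pitrm1* 1831 of the 16462 of *Pfkp*. The part of these neighbours in the values was not tested.

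The 3 enzymes that set fructose 2,6-bisphosphate, the activator of phosphofructokinase, were all lower at both times. *Pfkfb2* was at 6.24 to 9.83 RPM (median 7.55) at Rest, 3.05 to 6.54 RPM (median 4.90) at EPS 0h and 2.72 to 5.67 RPM (median 4.79) at EPS 3h. Its ranges overlapped at EPS 0h (log2FC -0.64, SE 0.199, FDR = 0.0101, sets -0.70 and -0.58) but not at EPS 3h (log2FC -0.75, SE 0.201, FDR = 0.00196, sets -1.09 and -0.39). *Yod1*, which overlaps it on the other strand, fell as well, by 1.03 and 0.67 on the log2 scale. *Pfkfb3* was at 13.1 to 17.6 RPM (median 15.7) at Rest, 9.62 to 13.5 RPM (median 11.1) at EPS 0h and 9.13 to 13.5 RPM (median 9.76) at EPS 3h, with overlap at both times (at EPS 0h log2FC -0.44, SE 0.110, FDR = 0.00179, sets -0.52 and -0.35, and at EPS 3h log2FC -0.57, SE 0.110, FDR = 4.55e-05, sets -0.74 and -0.40). *Pfkfb4* was at 6.68 to 9.33 RPM (median 7.75) at Rest, 3.61 to 6.87 RPM (median 5.07) at EPS 0h and 3.41 to 5.80 RPM (median 4.06) at EPS 3h. It overlapped Rest at EPS 0h (log2FC -0.55, SE 0.148, FDR = 0.00303, sets -0.76 and -0.39) and lay wholly under it at EPS 3h (log2FC -0.82, SE 0.149, FDR = 1.83e-05, sets -0.93 and -0.72). The background beside these 6 calls is the 18.4% and 25.9% of all genes called lower.

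Of the lactate genes, *Slc16a3*, the carrier that exports lactate from glycolytic muscle (ENSMUSG00000025161, chr11:120838846-120851694, plus strand), was the single one called without the block. It was at 15.8 to 28.1 RPM (median 17.9) at Rest, 8.40 to 13.9 RPM (median 11.4) at EPS 0h and 5.48 to 11.7 RPM (median 10.9) at EPS 3h, with no overlap between Rest and either time. This was 1.81-fold lower (log2FC -0.86, SE 0.216, FDR = 0.00182, sets -0.90 and -0.83) and then 2.13-fold lower (log2FC -1.09, SE 0.218, FDR = 7.41e-05, sets -1.11 and -1.07). *Csnk1d*, which overlaps it on the other strand, had log2FC 0.13 and 0.40. *Ccdc57*, which shares 452 exonic bases with it on that strand, was lower as well, by 0.47 (FDR = 0.00200) and 0.54 (FDR = 0.000288) on the log2 scale. Its part in the values of *Slc16a3* was not tested. *Ldha* had a log2FC of -0.01 (-0.26 to 0.24) and -0.00 (-0.25 to 0.25), which did not pass. *Slc16a1* had -0.19 and -0.23, which passed only with the replicate block (FDR = 0.0213 and 0.00484).

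**Figure D3:**
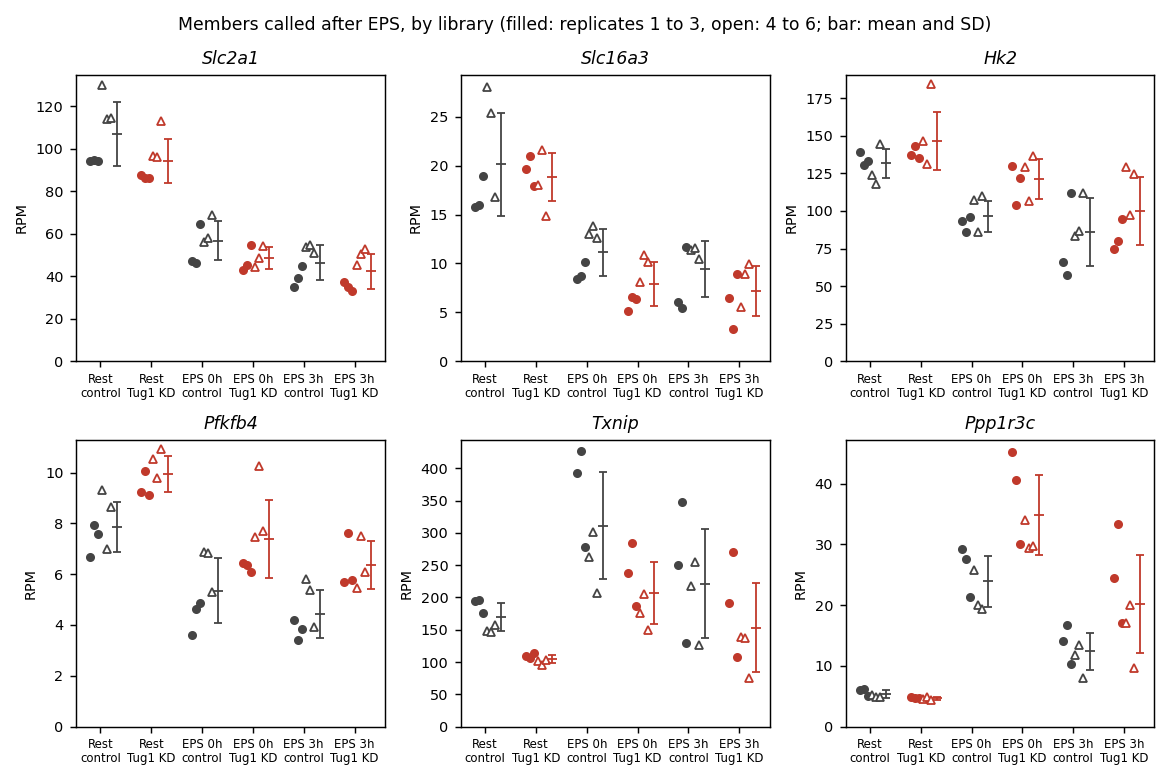
RPM in each of the 36 libraries (vertical axes, from 0) by group (horizontal axes) for 6 members called after EPS, control in grey and *Tug1* KD in red. Filled circles are replicates 1 to 3, open triangles replicates 4 to 6, and bars are mean and SD of 6 libraries. *Slc2a1*, *Slc16a3*, *Hk2* and *Pfkfb4* sit lower after EPS in control and *Ppp1r3c* higher, with its highest control values at EPS 0h.

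In glycogen synthesis, *Gyg* (glycogenin, the primer protein) rose and *Gbe1* (the branching enzyme) fell at EPS 0h. *Gyg* was at 52.1 to 60.2 RPM (median 56.1) at Rest, 55.5 to 86.1 RPM (median 71.1) at EPS 0h and 57.1 to 88.9 RPM (median 68.7) at EPS 3h, with overlap (at EPS 0h log2FC 0.34, SE 0.118, FDR = 0.0220, sets 0.60 and 0.03, and at EPS 3h log2FC 0.34, SE 0.118, FDR = 0.0157, sets 0.56 and 0.11). The rise at EPS 0h stood in set 1, and both calls were lost with scaling by library size alone. *Gbe1* was at 19.1 to 26.2 RPM (median 24.5) at Rest and 15.3 to 24.9 RPM (median 19.1) at EPS 0h (log2FC -0.30, SE 0.113, FDR = 0.0310, sets -0.19 and -0.45). *Gys1*, muscle glycogen synthase, had log2FC -0.09 and -0.15 and did not pass, except at EPS 3h with the replicate block (FDR = 0.0493).

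Among the 5 genes of glycogen breakdown, *Phkg1* rose and *Pygb* fell at EPS 3h. *Phkg1*, the muscle catalytic subunit of phosphorylase kinase, was low, 0.845 to 1.58 RPM (median 1.05) at Rest and 1.63 to 2.15 RPM (median 1.84) at EPS 3h, without overlap (log2FC 0.73, SE 0.221, FDR = 0.00549, sets 0.85 and 0.64). *Pygb* was at 35.0 to 70.8 RPM (median 42.4) at Rest and 27.2 to 42.9 RPM (median 33.8) at EPS 3h, with overlap (log2FC -0.45, SE 0.183, FDR = 0.0381, sets -0.40 and -0.47). *Pygb* (FDR = 0.00401) and *Phka1* (FDR = 0.0344) were also lower at EPS 0h with that block. *Pygm*, the main phosphorylase, had log2FC -0.06 (-0.35 to 0.22) and -0.03 (-0.32 to 0.26).

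The largest response of the set was that of *Ppp1r3c* (ENSMUSG00000067279, chr19:36708523-36714070, minus strand), also called protein targeting to glycogen, a subunit that brings protein phosphatase 1 to glycogen and so favours synthesis. It was at 4.79 to 6.22 RPM (median 5.08) at Rest, 19.4 to 29.2 RPM (median 23.5) at EPS 0h and 7.95 to 16.8 RPM (median 12.6) at EPS 3h. No library of either time overlapped Rest. The rise was 4.49-fold at EPS 0h (log2FC 2.17, SE 0.192, FDR = 5.72e-11, sets 2.18 and 2.15) and 2.32-fold at EPS 3h (log2FC 1.21, SE 0.191, FDR = 1.89e-06, sets 1.27 and 1.17). *Ppp1r3b*, the related subunit best known from liver, was at 1.70 to 2.87 RPM (median 2.39) at Rest and 2.61 to 4.23 RPM (median 3.47) at EPS 0h, with overlap (log2FC 0.52, SE 0.180, FDR = 0.0202, sets 0.64 and 0.40). *Ppp1r3a*, the striated muscle subunit, varied by library, 1.5 to 5.32 RPM (median 3.75) at Rest and 2.39 to 8.17 RPM (median 5.62) at EPS 0h, and did not pass (FDR = 0.325). At EPS 3h its log2FC was 0.64 (FDR = 0.173, and 0.0150 with the replicate block).

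By the stricter rule of an FDR under 0.01 with an absolute log2FC above 1, *Ppp1r3c* was the single member called at EPS 0h (6.23% of all genes higher and 2.20% lower), and at EPS 3h *Ppp1r3c* was higher and *Slc2a1* and *Slc16a3* lower (9.62% and 4.72% of all genes). Of the pyruvate dehydrogenase genes, *Pdk3* alone was called, at EPS 0h, from 9.99 to 15.3 RPM (median 13.3) to 13.9 to 18.2 RPM (median 16.0) (log2FC 0.29, SE 0.111, FDR = 0.0368, sets 0.55 and 0.04). Its ranges overlapped, the rise stood in set 1, and the call was lost with library size scaling. *Pcyt1b*, which shares 544 exonic bases with it on the other strand, was lower (log2FC -0.81, SE 0.199, FDR = 0.00135, sets -0.66 and -0.92). *Pdha1*, the catalytic subunit, had log2FC -0.08 (-0.25 to 0.08) and 0.09 (-0.08 to 0.25).

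Over the recovery, EPS 3h against EPS 0h within control myotubes, 1 member was higher (9.67% of all genes) and 1 lower (6.88%). *Ppp1r3c*, still above Rest, was lower than at EPS 0h without overlap (log2FC -0.95, SE 0.183, FDR = 0.000224, sets -0.91 and -0.98). *Gbe1* rose, from 15.3 to 24.9 RPM (median 19.1) to 20.8 to 31.1 RPM (median 29.0), with overlap (log2FC 0.49, SE 0.113, FDR = 0.00189, sets 0.43 and 0.59). *Txnip* had a log2FC of -0.49 (95% interval -0.93 to -0.05) and did not pass.

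In *Tug1* KD myotubes, 5 members were higher at EPS 0h (24.4% of all genes) and 7 lower (21.2%), and at EPS 3h 6 were higher (26.2%) and 12 lower (25.9%). The median log2FC of the members was -0.14 at EPS 0h and -0.06 at EPS 3h, against -0.03 and -0.04 over all genes. At EPS 0h it was -0.22 within set 1 and -0.01 within set 2, and at EPS 3h -0.14 and -0.01. With the replicate block, 14 members were lower at EPS 0h, the added 7 being *Hk1* (FDR = 0.00149), *Hk2* (FDR = 0.0247), *Pgam1* (FDR = 0.0332), *Eno3* (FDR = 0.0470), *Slc16a1* (FDR = 0.00346), *Pygb* (FDR = 0.000314) and *Pdk2* (FDR = 0.0398). Library size scaling gave 5 higher and 16 lower at EPS 0h and 3 higher and 17 lower at EPS 3h. The shares of all genes under the block and this scaling are not given here. Without the filter *Ppp1r3a* lost its call at both times and *Txnip* and *Arrdc4* at EPS 3h. By the stricter rule *Ppp1r3c* and *Phkg1* were higher at both times (8.15% of all genes at EPS 0h and 11.0% at EPS 3h), while *Slc16a3* was lower at both and *Slc2a1* at EPS 3h (2.50% and 4.49%). No library is shared with the control comparisons. At EPS 0h 3 of the higher and 5 of the lower members were also called that way in control myotubes, and at EPS 3h 3 and 6 were. The share of all genes called in both kinds of myotubes is not given here, so these counts have no background.

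The carriers fell in *Tug1* KD myotubes too. *Slc2a1* was at 86.1 to 113 RPM (median 91.8) at Rest, 43.2 to 54.8 RPM (median 47) at EPS 0h and 33.2 to 52.7 RPM (median 41.3) at EPS 3h, without overlap (at EPS 0h log2FC -0.96, SE 0.125, FDR = 1.09e-07, sets -0.85 and -1.05, and at EPS 3h log2FC -1.16, SE 0.125, FDR = 1.06e-09, sets -1.28 and -1.04). *Slc16a3* was at 14.8 to 21.6 RPM (median 18.9) at Rest, 5.16 to 10.9 RPM (median 7.34) at EPS 0h and 3.28 to 9.92 RPM (median 7.67) at EPS 3h, again without overlap. The fall passed at EPS 0h (log2FC -1.25, SE 0.220, FDR = 1.82e-05, sets -1.68 and -0.90) and at EPS 3h (log2FC -1.39, SE 0.222, FDR = 2.38e-06, sets -1.64 and -1.15). *Hk2* was at 131 to 184 RPM (median 140.4) at Rest and 74.7 to 129 RPM (median 96.0) at EPS 3h, without overlap (log2FC -0.55, SE 0.135, FDR = 0.000833, sets -0.72 and -0.40). *Pfkfb4* was at 9.11 to 10.9 RPM (median 9.92) at Rest, 6.07 to 10.2 RPM (median 6.96) at EPS 0h (log2FC -0.43, SE 0.145, FDR = 0.0159, sets -0.58 and -0.30) and 5.47 to 7.62 RPM (median 5.93) at EPS 3h (log2FC -0.64, SE 0.147, FDR = 0.000361, sets -0.55 and -0.71), clear of Rest at the later time only. *Pfkfb2* was at 4.88 to 7.99 RPM (median 7.16) at Rest, 3.16 to 6.59 RPM (median 4.23) at EPS 0h (log2FC -0.61, SE 0.201, FDR = 0.0132, sets -0.67 and -0.54) and 2.47 to 5.45 RPM (median 4.97) at EPS 3h (log2FC -0.65, SE 0.202, FDR = 0.00696, sets -0.71 and -0.58), with overlap.

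*Ppp1r3c* in *Tug1* KD myotubes was at 4.32 to 4.91 RPM (median 4.72) at Rest, 29.4 to 45.1 RPM (median 32) at EPS 0h and 9.59 to 33.4 RPM (median 18.5) at EPS 3h. Both times lay wholly above Rest, 7.44-fold (log2FC 2.90, SE 0.197, FDR = 7.4e-14, sets 3.02 and 2.76) and 4.33-fold (log2FC 2.11, SE 0.194, FDR = 2.08e-11, sets 2.40 and 1.77). *Phkg1* was at 0.469 to 0.966 RPM (median 0.673) at Rest, 1.10 to 2.21 RPM (median 1.72) at EPS 0h and 1.67 to 3.75 RPM (median 2.91) at EPS 3h, also without overlap (at EPS 0h log2FC 1.24, SE 0.234, FDR = 5.09e-05, sets 1.27 and 1.21, and at EPS 3h log2FC 1.94, SE 0.230, FDR = 7.18e-09, sets 2.14 and 1.71). All 6 Rest *Tug1* KD libraries were under 1 RPM, so *Phkg1* met the filter through other groups. *Sumf2*, which overlaps *Phkg1* on the other strand, was lower (log2FC -0.58 and -0.56). *Ppp1r3a* was at 1.40 to 4.29 RPM (median 3.18) at Rest, 1.77 to 10.8 RPM (median 6.26) at EPS 0h (log2FC 1.17, SE 0.400, FDR = 0.0170, sets 1.48 and 0.50) and 2.51 to 9.17 RPM (median 5.05) at EPS 3h (log2FC 0.95, SE 0.402, FDR = 0.0456, sets 1.19 and 0.51). It overlapped Rest, and both calls were lost with limma-voom (FDR = 0.0708 and 0.0955).

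*Txnip* in *Tug1* KD myotubes was at 95.2 to 114 RPM (median 104) at Rest, 149 to 284 RPM (median 196) at EPS 0h and 75.2 to 269.9 RPM (median 137) at EPS 3h. It was clear of Rest at EPS 0h (log2FC 0.98, SE 0.227, FDR = 0.000622, sets 1.12 and 0.83) but not at EPS 3h (log2FC 0.55, SE 0.226, FDR = 0.0397, sets 0.82 and 0.23), where the call was lost with limma-voom (FDR = 0.105) and with library size scaling. *Arrdc4* was at 2.54 to 3.61 RPM (median 3.08) at Rest, 4.01 to 5.79 RPM (median 4.98) at EPS 0h (log2FC 0.62, SE 0.164, FDR = 0.00220, sets 0.88 and 0.39) and 3.61 to 5.84 RPM (median 3.79) at EPS 3h (log2FC 0.44, SE 0.166, FDR = 0.0242, sets 0.79 and 0.11), with no overlap at EPS 0h. The call at EPS 3h was lost with library size scaling.

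Of the enzymes, *Pfkl* was higher at EPS 3h, 84.9 to 109 RPM (median 89.3) against 42.3 to 62.4 RPM (median 48.0) at Rest, without overlap (log2FC 0.86, SE 0.150, FDR = 1.04e-05, sets 0.92 and 0.82), with *Cfap410* also higher (log2FC 0.58, SE 0.122, FDR = 0.000145, sets 0.60 and 0.57). *Pgam2*, muscle phosphoglycerate mutase, was at 50.8 to 101 RPM (median 81.0) at Rest, 51.2 to 63.2 RPM (median 57.9) at EPS 0h (log2FC -0.40, SE 0.139, FDR = 0.0174, sets -0.63 and -0.11) and 43.6 to 81.8 RPM (median 55.0) at EPS 3h (log2FC -0.40, SE 0.140, FDR = 0.0159, sets -0.50 and -0.24), with overlap. *Gpi1* was at 459 to 573 RPM (median 546) at Rest and 389 to 489 RPM (median 431) at EPS 0h (log2FC -0.26, SE 0.0817, FDR = 0.0104, sets -0.42 and -0.08), and *Pfkm* at 447 to 593 RPM (median 534) and 398 to 475 RPM (median 445) (log2FC -0.26, SE 0.0828, FDR = 0.0116, sets -0.39 and -0.09). Both pairs of ranges overlapped. *Hk1* and *Gpi1* were also lower at EPS 3h, by 0.38 and 0.20 on the log2 scale.

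The remaining calls at EPS 3h in *Tug1* KD myotubes were small and overlapped Rest. *Slc16a1* was at 68.9 to 95.7 RPM (median 80.3) at Rest and 53.5 to 78.4 RPM (median 63.5) at EPS 3h (log2FC -0.32, SE 0.124, FDR = 0.0282, sets -0.39 and -0.26). *Gys1* was at 127 to 138 RPM (median 135) and 102 to 127 RPM (median 117) (log2FC -0.21, SE 0.0789, FDR = 0.0265, sets -0.26 and -0.14). *Pygb* was at 35.9 to 48.1 RPM (median 40.6) and 21.6 to 37.7 RPM (median 28.8) (log2FC -0.47, SE 0.184, FDR = 0.0320, sets -0.63 and -0.33). *Pdk2*, which inhibits pyruvate dehydrogenase, was at 23.4 to 29.6 RPM (median 27.4) and 18.8 to 24.9 RPM (median 21.9) (log2FC -0.30, SE 0.0950, FDR = 0.00881, sets -0.30 and -0.27). None of these 4 was called at EPS 0h without the replicate block.

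Some members differed between *Tug1* KD and control in every state. A single LNA sequence against *Tug1* was set against a single control sequence, and effects of the sequence other than loss of *Tug1* were not tested. At Rest 2 members were higher (4.55%, against 5.54% of all genes) and 5 lower (11.4%, against 4.47%). At EPS 0h 5 were higher (11.4%, against 8.25%) and 9 lower (20.5%, against 6.07%), and at EPS 3h 4 were higher (9.09%, against 6.38%) and 8 lower (18.2%, against 5.11%). The shares of lower members were thus above the background in all 3 states. The median log2FC of the members was -0.17, -0.21 and -0.14 in the same order, against -0.03, -0.00 and -0.01 over all genes, and its values within set 1 and set 2 were -0.03 and -0.27 at Rest, then -0.23 and -0.16, then -0.18 and -0.13. No library is shared among the 3 states, and 2 members were higher and 4 lower in all of them. The share of all genes called in all 3 states is not given here, so these 2 counts have no background. With the replicate block, 17 were lower at EPS 0h and 14 at EPS 3h. With library size scaling the calls at EPS 0h were 3 higher and 11 lower. Without the filter on low counts the calls of *Txnip* and *Tpi1* at Rest, of *Aldoa*, *Pfkfb4* and *Slc16a1* at EPS 0h, and of *Pfkfb4*, *Gyg* and *Gys1* at EPS 3h were lost. The replicate and experiment blocks gave 11 and 10 lower at Rest, DESeq2 gave 8, and the count at Rest was 3 in replicates 1 to 3, 10 in replicates 4 to 6 and 3 without the filter. The shares of all genes under these alternatives are not given here, so only the counts of the main fit have a background. *Pdgfra*, a fibroblast marker, was lower with *Tug1* KD by 0.57, 0.80 and 0.69 on the log2 scale, while the other 4 markers of its list stayed at group means of 1.26 RPM or less, and its part in these results was not tested.

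*Arrdc4* was lower with *Tug1* KD in every state. Its Rest values were 4.02 to 6.86 RPM (median 5.24) in control and 2.54 to 3.61 RPM (median 3.08) in *Tug1* KD libraries (log2FC -0.72, SE 0.163, FDR = 0.00244, sets -1.03 and -0.40). At EPS 0h they were 5.84 to 9.47 RPM (median 7.16) and 4.01 to 5.79 RPM (median 4.98) (log2FC -0.58, SE 0.159, FDR = 0.0102, sets -0.63 and -0.50), and at EPS 3h 4.64 to 8.89 RPM (median 6.2) and 3.61 to 5.84 RPM (median 3.79) (log2FC -0.65, SE 0.161, FDR = 0.00592, sets -0.69 and -0.59), with overlap at EPS 3h only. *Txnip* was called at Rest, 147 to 196 RPM (median 167) in control and 95.2 to 114 RPM (median 104) in *Tug1* KD libraries, without overlap (log2FC -0.70, SE 0.226, FDR = 0.0406, sets -0.79 and -0.60). After EPS its log2FC was -0.59 (95% interval -1.03 to -0.15) and -0.53 (-0.97 to -0.09), which did not pass (FDR = 0.0730 and 0.133) but did with the replicate block (FDR = 0.00289 and 0.00572). *Slc2a1* had log2FC between -0.23 and -0.13 over the 3 states and was not called.

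Of the 16 glycolytic enzymes, 2 were lower at Rest (12.5%, against 4.47% of all genes). At EPS 0h 4 were lower (25%, against 6.07%), and at EPS 3h 3 were (18.8%, against 5.11%). With the replicate block *Hk2* was also higher at EPS 0h (log2FC 0.33, FDR = 0.0149) and *Aldoc* lower (log2FC -0.57, FDR = 0.00852), and *Eno3* was lower at EPS 0h (log2FC -0.35, FDR = 0.0213) and EPS 3h (log2FC -0.35, FDR = 0.0252). *Tpi1*, triosephosphate isomerase, was at 758 to 1166 RPM (median 841) in control and 508 to 791 RPM (median 748) in *Tug1* KD libraries at Rest. These ranges overlapped, and the fall stood mostly in set 2 (log2FC -0.41, SE 0.131, FDR = 0.0393, sets -0.10 and -0.72). *Tpi1* was at 733 to 991 RPM (median 827) and 460.1 to 668 RPM (median 570.3) at EPS 0h, without overlap (log2FC -0.55, SE 0.131, FDR = 0.00311, sets -0.49 and -0.58). At EPS 3h it was at 763 to 1107 RPM (median 891) and 505 to 823 RPM (median 649), with overlap (log2FC -0.48, SE 0.131, FDR = 0.0130, sets -0.49 and -0.46). *Spsb2*, which shares 38 exonic bases with *Tpi1* on the other strand, had log2FC -0.45, -0.52 and -0.49 and was not called.

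*Pgam2* was lower in every state as well. At Rest it was at 82.4 to 127 RPM (median 110.3) in control and 50.8 to 101 RPM (median 81.0) in *Tug1* KD libraries (log2FC -0.51, SE 0.139, FDR = 0.0132, sets -0.26 and -0.82). At EPS 0h it was at 85.0 to 98.8 RPM (median 93.4) and 51.2 to 63.2 RPM (median 57.9) (log2FC -0.68, SE 0.140, FDR = 0.000707, sets -0.63 and -0.70), and at EPS 3h at 75.8 to 121 RPM (median 82.3) and 43.6 to 81.8 RPM (median 55.0) (log2FC -0.60, SE 0.140, FDR = 0.00319, sets -0.58 and -0.62). The groups were apart at EPS 0h and overlapped in the other states. All 989 exonic bases of *Pgam2* lie opposite exons of *Dbnl*, whose log2FC was 0.08, 0.07 and 0.10. *Pgam1*, the isoform of most other tissues, had log2FC -0.14, -0.29 and -0.28 and did not pass, although after EPS both values did with the replicate block (FDR = 0.0102 and 0.0163).

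*Aldoa* was lower at EPS 0h, 874 to 1235 RPM (median 1061) against 1256 to 1596 RPM (median 1379) in control, without overlap (log2FC -0.37, SE 0.121, FDR = 0.0351, sets -0.35 and -0.37). *Gpi1* also fell at EPS 0h (log2FC -0.25, SE 0.0817, FDR = 0.0304, sets -0.29 and -0.21). *Aldoc*, a low brain-type aldolase, was at 2.21 to 3.47 RPM (median 3.04) in control and 0.774 to 2.55 RPM (median 1.18) in *Tug1* KD libraries at EPS 3h, with overlap (log2FC -0.96, SE 0.281, FDR = 0.0200, sets -1.20 and -0.80). *Gapdh* had a log2FC of -0.01 (-0.25 to 0.22) at Rest, -0.20 (-0.44 to 0.03) at EPS 0h and -0.08 (-0.31 to 0.16) at EPS 3h. The 16 enzymes together summed to 6861 to 9719 RPM in *Tug1* KD libraries at EPS 0h and 8926 to 11529 RPM in control, which overlapped.

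*Pfkfb4* was higher with *Tug1* KD after EPS. It was at 3.61 to 6.87 RPM (median 5.07) in control and 6.07 to 10.2 RPM (median 6.96) in *Tug1* KD libraries at EPS 0h (log2FC 0.46, SE 0.148, FDR = 0.0291, sets 0.54 and 0.42), a call lost with library size scaling. At EPS 3h it was at 3.41 to 5.80 RPM (median 4.06) and 5.47 to 7.62 RPM (median 5.93) (log2FC 0.52, SE 0.151, FDR = 0.0200, sets 0.73 and 0.34), and the ranges overlapped at both times. At Rest its log2FC was 0.34 (FDR = 0.150).

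All 4 lactate genes had a log2FC below 0 in every state. Of these, 3 were called at EPS 0h (75%, against 6.07% of all genes) and 2 at EPS 3h (50%, against 5.11%). The replicate block added 1 more at each time. *Ldha*, the muscle-type lactate dehydrogenase, was at 599.5 to 793 RPM (median 679) in control and 379 to 559 RPM (median 499) in *Tug1* KD libraries at EPS 0h (log2FC -0.48, SE 0.129, FDR = 0.00826, sets -0.44 and -0.51). At EPS 3h it was at 585 to 797 RPM (median 696) and 412 to 579 RPM (median 539) (log2FC -0.44, SE 0.129, FDR = 0.0218, sets -0.48 and -0.39), and the groups did not overlap at either time. *Slc16a1* was at 69.7 to 104 RPM (median 90.4) and 59.9 to 77.7 RPM (median 65.4) at EPS 0h (log2FC -0.39, SE 0.124, FDR = 0.0284, sets -0.28 and -0.47) and 68.2 to 110.2 RPM (median 85.1) and 53.5 to 78.4 RPM (median 63.5) at EPS 3h (log2FC -0.42, SE 0.124, FDR = 0.0205, sets -0.41 and -0.43), with overlap. *Ldhb*, the heart-type form, was at 16.9 to 22.9 RPM (median 19.2) and 11.6 to 17.5 RPM (median 13.3) at EPS 0h, with overlap (log2FC -0.49, SE 0.150, FDR = 0.0241, sets -0.45 and -0.51). At EPS 3h its log2FC was -0.41 (FDR = 0.0719, and 0.00140 with the block). *Slc16a3* had log2FC -0.10, -0.49 and -0.40 and was called at EPS 0h with the block only (FDR = 0.0300).

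**Figure D4:**
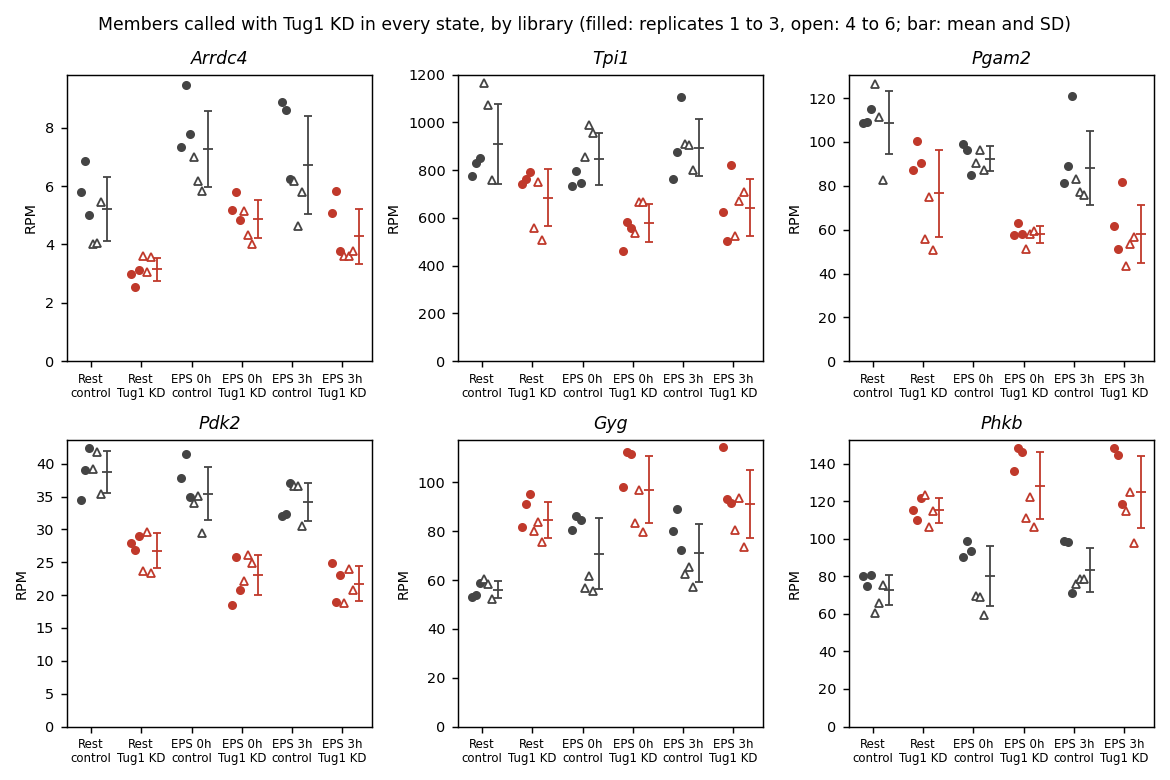
RPM in each of the 36 libraries (vertical axes, from 0) by group (horizontal axes) for the 6 members called with *Tug1* KD in all 3 states, control in grey and *Tug1* KD in red. Filled circles are replicates 1 to 3, open triangles replicates 4 to 6, and bars are mean and SD of 6 libraries. *Arrdc4*, *Tpi1*, *Pgam2* and *Pdk2* sit lower and *Gyg* and *Phkb* higher with *Tug1* KD.

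On the glycogen side *Gys1* alone was called lower without the replicate block, at EPS 3h, and the higher calls recur in the same genes. At Rest 1 of 4 synthesis genes (25%), 1 of 5 breakdown genes (20%) and 0 of 4 targeting subunits were higher, against 5.54% of all genes. The shares were 25%, 40% and 25% at EPS 0h (against 8.25%) and 25%, 20% and 25% at EPS 3h (against 6.38%). The lower call was 1 of 4 synthesis genes (25%, against 5.11%). *Gyg* was at 52.1 to 60.2 RPM (median 56.1) in control and 75.8 to 95.4 RPM (median 82.7) in *Tug1* KD libraries at Rest, without overlap (log2FC 0.59, SE 0.118, FDR = 0.000613, sets 0.70 and 0.49). It was at 55.5 to 86.1 RPM (median 71.1) and 79.8 to 112 RPM (median 97.4) at EPS 0h (log2FC 0.45, SE 0.118, FDR = 0.00681, sets 0.37 and 0.58) and 57.1 to 88.9 RPM (median 68.7) and 73.7 to 114 RPM (median 92.4) at EPS 3h (log2FC 0.36, SE 0.118, FDR = 0.0402, sets 0.31 and 0.42), with overlap at both times. *Phkb*, the regulatory beta subunit of phosphorylase kinase, was at 60.3 to 80.6 RPM (median 74.9) and 106 to 123 RPM (median 115) at Rest, without overlap (log2FC 0.66, SE 0.117, FDR = 0.000136, sets 0.56 and 0.77). At EPS 0h it was at 59.5 to 99.0 RPM (median 80.0) and 106 to 148 RPM (median 129), without overlap (log2FC 0.68, SE 0.117, FDR = 7.55e-05, sets 0.62 and 0.78), and at EPS 3h at 71.0 to 98.7 RPM (median 78.4) and 97.6 to 148 RPM (median 122), with overlap (log2FC 0.58, SE 0.117, FDR = 0.000691, sets 0.62 and 0.54). The overlapping neighbours *Hltf* of *Gyg* and *Itfg1* of *Phkb* had log2FC between -0.21 and 0.09.

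*Phka1*, the muscle alpha subunit of the same kinase, was called at EPS 0h, 13.6 to 28.1 RPM (median 20.3) in control and 25.8 to 31.7 RPM (median 27.2) in *Tug1* KD libraries, with overlap (log2FC 0.46, SE 0.143, FDR = 0.0253, sets 0.27 and 0.71), and at EPS 3h with the replicate block (log2FC 0.36, FDR = 0.0272). *Ppp1r3c* was higher after EPS, 19.4 to 29.2 RPM (median 23.5) against 29.4 to 45.1 RPM (median 32) at EPS 0h, just without overlap (log2FC 0.54, SE 0.178, FDR = 0.0352, sets 0.58 and 0.51), a call lost with library size scaling. At EPS 3h it was at 7.95 to 16.8 RPM (median 12.6) and 9.59 to 33.4 RPM (median 18.5), with overlap (log2FC 0.71, SE 0.183, FDR = 0.00760, sets 0.87 and 0.50). At Rest its log2FC was -0.19 (-0.57 to 0.20). *Gys1* was lower at EPS 3h, 102 to 127 RPM (median 117) against 116 to 159.9 RPM (median 142) in control, with overlap (log2FC -0.27, SE 0.0790, FDR = 0.0212, sets -0.22 and -0.30). With the replicate block *Gys1* was also lower at EPS 0h (log2FC -0.22, FDR = 0.0113), as were *Pygb* (log2FC -0.24, FDR = 0.0389) and *Pygm*. For *Pygm* the log2FC was -0.26 (FDR = 0.0239) at EPS 0h and -0.23 (FDR = 0.0434) at EPS 3h.

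*Pdk2* (ENSMUSG00000038967, chr11:94914929-94932242, minus strand), had the smallest FDR of any member with *Tug1* KD in each state. At Rest it was at 34.5 to 42.4 RPM (median 39.1) in control and 23.4 to 29.6 RPM (median 27.4) in *Tug1* KD libraries (log2FC -0.53, SE 0.0941, FDR = 0.000122, sets -0.47 and -0.60). At EPS 0h it was at 29.5 to 41.4 RPM (median 35.0) and 18.5 to 26.1 RPM (median 23.5) (log2FC -0.62, SE 0.0946, FDR = 1.18e-05, sets -0.80 and -0.43), and at EPS 3h at 30.5 to 37.1 RPM (median 34.5) and 18.8 to 24.9 RPM (median 21.9) (log2FC -0.65, SE 0.0950, FDR = 7.78e-06, sets -0.60 and -0.70). The groups did not overlap in any state. *Samd14*, which overlaps it on the other strand, had log2FC 0.04, 0.02 and -0.08. *Pdk1*, *Pdk3* and *Pdha1* were not called, except *Pdk1* at EPS 3h with the replicate block (log2FC -0.25, FDR = 0.0294).

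Whether the EPS response differed between *Tug1* KD and control myotubes was tested by an interaction term. No member passed in edgeR at EPS 0h (0% of all genes higher and 0% lower) or at EPS 3h (0.00715% higher and 0% lower), and none did in DESeq2 or limma-voom. In edgeR 3 members had an unadjusted p under 0.05 at each time. *Phkg1* at EPS 3h had the lowest, an interaction of 1.21 on the log2 scale (95% interval 0.58 to 1.83, FDR = 0.501). *Ppp1r3c* had an interaction of 0.73 (0.21 to 1.25, FDR = 1.000) at EPS 0h and 0.90 (0.37 to 1.43, FDR = 0.683) at EPS 3h. For *Slc2a1* it was -0.05 (-0.39 to 0.30) and 0.05 (-0.29 to 0.39), and for *Slc16a3* -0.40 (-1.0 to 0.20) and -0.30 (-0.90 to 0.30).

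Of the 44 members, 13 were called in none of the 8 comparisons of 2 groups, and the share of all genes called in none is not given here. These 13 were *Slc2a4*, *Pfkp*, *Gapdh*, *Pgk1*, *Pgam1*, *Eno1*, *Eno3*, *Pkm*, *Ugp2*, *Pygm*, *Ppp1r3f*, *Pdk1* and *Pdha1*. Under the replicate block *Slc2a4*, *Pfkp*, *Pgam1*, *Eno3*, *Ugp2*, *Pygm* and *Pdk1* passed in at least 1 comparison in which same-numbered libraries deviated together. *Ugp2*, which makes the sugar donor of glycogen, had a log2FC from 0.32 to 0.36 after EPS in control (FDR = 0.0443 and 0.0133 with the block) and 0.35 with *Tug1* KD at Rest. The 3 names that did not pass the filter were low throughout. *Pfkfb1* was at 0.721 to 1.30 RPM (median 0.829) at Rest and 0 to 0.488 RPM (median 0.0736) at EPS 3h in control, *Fbp2* at 0.127 to 0.602 RPM (median 0.196) at Rest, and *Ppp1r3d* at 0 in all libraries but 1 of EPS 3h control. A second row named *Aldoa* stayed between 0.170 and 1.27 RPM and is not used.

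Other genes of glucose metabolism were read from 7 lists of 86 genes, of which 70 passed the filter. In control myotubes 13 were higher at EPS 0h (18.6%, against 20.5% of all genes) and 8 lower (11.4%, against 18.4%), and 14 were higher at EPS 3h (20%, against 26.1%) and 16 lower (22.9%, against 25.9%). In *Tug1* KD myotubes 15 were higher at EPS 0h (21.4%, against 24.4%) and 13 lower (18.6%, against 21.2%), and 11 were higher at EPS 3h (15.7%, against 26.2%) and 13 lower (18.6%, against 25.9%). All 8 shares were thus under that of all genes. With *Tug1* KD, 2 were higher at Rest (2.86%, against 5.54%) and 5 lower (7.14%, against 4.47%). At EPS 0h 7 were higher (10%, against 8.25%) and 4 lower (5.71%, against 6.07%), and at EPS 3h 4 were higher (5.71%, against 6.38%) and 4 lower (5.71%, against 5.11%). For the single lists at EPS 0h in control myotubes, 20.5% of all genes higher and 18.4% lower is again the background. Of the 9 pentose phosphate genes, 3 were lower (33.3%) and 1 higher. *Pgd*, an oxidative enzyme of that pathway, was at 288 to 444 RPM (median 356) at Rest and 108 to 216 RPM (median 161) at EPS 0h (log2FC -1.19, SE 0.223, FDR = 5.91e-05, sets -1.28 and -1.14), and *G6pdx*, its first enzyme, at 48.1 to 78.5 RPM (median 66.0) and 23.5 to 35.1 RPM (median 29.9) (log2FC -1.15, SE 0.169, FDR = 1.39e-06, sets -1.0 and -1.27). Neither overlapped Rest. Among 12 genes of transporter traffic and other arrestin-domain proteins, 2 were higher and 2 lower (16.7% each) at EPS 0h, and *Irs1* and *Irs2*, adaptors of the insulin receptor, rose (for *Irs1* log2FC 1.23, SE 0.144, FDR = 2.14e-08, sets 1.11 and 1.35, and for *Irs2* log2FC 1.26, SE 0.180, FDR = 8.73e-07, sets 1.31 and 1.21).

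Among the 11 genes of the rest of the pyruvate dehydrogenase complex and pyruvate carriers, 2 were lower at EPS 0h in control myotubes (18.2%). *Pdk4*, the kinase known to rise with fasting, was at 41.1 to 53.8 RPM (median 44.4) at Rest and 24.8 to 35.8 RPM (median 27.2) at EPS 0h, without overlap (log2FC -0.70, SE 0.117, FDR = 1.16e-05, sets -0.54 and -0.85), and *Pcx*, pyruvate carboxylase, was also lower (log2FC -0.51, SE 0.170, FDR = 0.0155, sets -0.52 and -0.51). Of 16 other glycogen genes tested, 5 were higher at EPS 0h (31.3%). Of these, *Gys2*, the liver synthase, met the filter only through the 2 EPS 3h groups, so its call is no support. It remains in the 5 of 16 here and in the counts over all 70 genes at both times. *Slc2a10*, another member of the GLUT family, was the 1 lower gene of 8 other isoforms (log2FC -0.71, SE 0.271, FDR = 0.0350, sets -0.88 and -0.58). Of 5 hexosamine genes, *Gfpt1*, the entry enzyme, was higher (log2FC 0.49, SE 0.128, FDR = 0.00263, sets 0.65 and 0.28).

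With *Tug1* KD, the shuttle genes that carry cytosolic reducing equivalents into mitochondria had 3 lower members of 9 in every state (33.3%, against 4.47%, 6.07% and 5.11% of all genes in the order Rest, EPS 0h and EPS 3h). *Gpd1*, cytosolic glycerol 3-phosphate dehydrogenase, was at 6.94 to 11.2 RPM (median 7.57) in control and 1.92 to 3.96 RPM (median 3.05) in *Tug1* KD libraries at Rest, without overlap (log2FC -1.51, SE 0.165, FDR = 4.42e-08, sets -1.36 and -1.72). Its log2FC was -1.51 and -1.38 after EPS. *Gpd1l* was lower as well (log2FC -0.45, SE 0.0822, FDR = 0.000226, sets -0.35 and -0.55). *Phka2*, the liver alpha subunit of phosphorylase kinase, was higher at Rest (log2FC 0.48, SE 0.146, FDR = 0.0302, sets 0.33 and 0.66).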

How the data were processed

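RNA of 36 C2C12 myotube libraries was sequenced by the authors, whose processing notes name FastQC 0.11.7, fastp 0.14.1 and STAR 2.5. The deposited matrix holds the authors' whole-number counts of reads per gene, not normalised, on Ensembl genes of GRCm39, and the strand setting of the counting is not given in the sources used here. Rows without a gene name held 0.0327% of counts. The libraries were stranded, but unstranded counting would not separate a gene from one opposite to it where their exons overlap. Processed copies of glycolytic genes can share reads with their parents. Such values carry these limits.

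Genes with at least 1 count per 1000000 (CPM) in at least 12 libraries were fitted in all 36 libraries and 6 groups with edgeR 4.0.16 (quasi-likelihood F-test, robust, TMM) in R 4.3.3, with Benjamini-Hochberg adjustment over 13995 genes. RPM are counts per 1000000 of the TMM-scaled library size. SE is the absolute log2FC divided by the root of F, and "called" means an FDR under 0.05. Levels between genes were divided by the length of the canonical transcript. p-values measure the spread between wells of 1 cell line from 2 experiments. Intervals cover counting and well spread as modelled.

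Replicates with the same number deviated together (r over 0.1 in all 6 pairs) in 5 comparisons, with r from 0.122 to 0.716. These were both of *Tug1* KD after EPS, both of EPS against Rest in control, and EPS 0h against Rest in *Tug1* KD. Libraries of different numbers within a set were not compared in this way. Pairing by number and an effect shared by a whole experiment thus cannot be told apart. No pair of libraries of a group agreed within sampling noise. Alternatives were DESeq2 1.42.0, limma-voom (limma 3.58.1), library size scaling, no filter, a replicate block, an experiment block, and each set of 3 replicates alone. The fit was tested on simulated data with known changes. The members and lists were chosen with earlier results of these data known. Members given with library values are the 3 of a role with the largest absolute log2FC among those called in a comparison, and genes of other lists the top 2, of which some are not reported here. Promoters and gene positions come from GENCODE vM39 on GRCm39. Annotated overlaps were read from the same annotation.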

Additional observations from a re-analysis of the deposited data

Results flagged for a closer look

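In 180 groups of 6 libraries of the members given in full, the highest or lowest library was compared with the nearest by Dixon's ratio, and 7 groups passed its 95% critical value, where chance gives 1 in 20, or 9. *Phka1* was at 20.7 RPM in replicate 5 of Rest *Tug1* KD, under the next lowest at 30.9 RPM. *Hk2* was at 184 RPM in replicate 6 of the same group, above the next at 147 RPM. *Pgam2* was at 121 RPM in replicate 3 of EPS 3h control, with the next at 89.2 RPM, and *Pfkfb3* at 13.5 RPM in replicate 6 of that group, with the next at 10.7 RPM. *Pfkl* was at 109 RPM in replicate 2 of EPS 3h *Tug1* KD, with the next at 93.3 RPM. *Gbe1* was at 19.1 RPM in replicate 4 of Rest control, under the next lowest at 23.6 RPM, and at 28.5 RPM in replicate 3 of EPS 0h *Tug1* KD, with the next at 22.9 RPM. The 7 values came from 7 different libraries.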

How the results depend on the processing

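None of the 87 calls of members given in full reversed under any of the 8 alternatives. These calls were picked as the largest in the main fit of the same libraries, so a reversal was unlikely from the start. DESeq2 kept 87 calls, limma-voom 84, library size scaling 79, no filter 69, the replicate block 87, the experiment block 87, replicates 1 to 3 alone 66 and replicates 4 to 6 alone 49. The last 2 hold fewer libraries, and the cause of the other losses was not tested. Of 30 counts of members, 28 stayed within 1.5 times under DESeq2, 29 under limma-voom, 23 under library size scaling, 24 without the filter, 21 under the replicate block, 22 under the experiment block, 22 with replicates 1 to 3 alone and 19 with 4 to 6 alone. The counts that moved by more follow, without the shares of all genes under each alternative.

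DESeq2 gave 8 lower with *Tug1* KD at Rest and 7 higher at EPS 3h in control, and limma-voom 2 higher between EPS 0h and EPS 3h. Without the filter there were 3 lower with *Tug1* KD at Rest, 2 higher with *Tug1* KD at EPS 3h, 3 higher at EPS 0h in control and 3 higher at EPS 3h in *Tug1* KD, and by the stricter rule 1 lower between EPS times and 2 lower at EPS 0h in *Tug1* KD. Library size scaling gave 3 higher with *Tug1* KD at EPS 0h, 17 lower at EPS 3h in control, 3 lower between EPS times (1 by the stricter rule), 16 lower at EPS 0h in *Tug1* KD (2 by the stricter rule) and 3 higher at EPS 3h in *Tug1* KD.

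With the replicate block, where same-numbered libraries deviated together, 17 were lower with *Tug1* KD at EPS 0h and 14 lower with *Tug1* KD at EPS 3h. There were also 13 lower at EPS 0h in control, 7 higher and 13 lower at EPS 3h in control and 14 lower at EPS 0h in *Tug1* KD. In the other comparisons, the block gave 11 lower with *Tug1* KD at Rest and 3 higher and 3 lower between EPS times. It changed no other count by more than 1.5 times. The experiment block gave 10 lower at Rest, 17 lower at EPS 0h and 13 lower at EPS 3h with *Tug1* KD, 13 lower at EPS 0h in control, 8 higher and 12 lower at EPS 3h in control, and 3 higher and 2 lower between EPS times.

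In replicates 1 to 3 there were 3 lower with *Tug1* KD at Rest, 2 higher and 2 lower with it at EPS 0h, 8 higher at EPS 3h in control, 2 higher and 2 lower between EPS times, and 16 lower with 4 higher by the stricter rule at EPS 0h in *Tug1* KD. In replicates 4 to 6 there were 10 lower with *Tug1* KD at Rest, 3 higher with it at EPS 0h, 2 higher with it at EPS 3h, 3 higher and 4 lower at EPS 0h in control, 1 higher at EPS 3h in control, 3 higher (1 by the stricter rule) and 3 lower at EPS 0h in *Tug1* KD, and 3 higher and 5 lower at EPS 3h in *Tug1* KD. A median library of 19439668 counts puts 3 counts at 0.154 RPM, which limits *Ppp1r3d*, *Fbp2* and *Pfkfb1*.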
